A study of Homo sapiens with 8 samples.

Results

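Kinesins are motor proteins that use ATP to move along microtubules or to take their ends apart. Of the 19035 gene symbols in the expression table, 42 were kinesin genes, taken as every symbol that starts with KIF and a digit, together with KIFC1, KIFC2 and KIFC3. They were sorted by known role into 15 mitotic kinesins, 17 cargo transport kinesins and 10 with ciliary, signalling or other roles. A mean of at least 1 TPM (a transcript level scaled for gene length and for the library's total) over the 6 libraries was required for testing, and 32 of the 42 met it: 13 mitotic, 14 transport and 5 others. KIF2B and KIF19 were listed at 0 TPM in every library, and KIF7, KIF21B, KIF4B, KIF17, KIF26B, KIF25, KIF5A and KIF6 stayed at or under 0.714 TPM in each. KIF4B is a processed copy of KIF4A, so reads of the pair cannot be separated with certainty.

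In a dividing cell, mitotic kinesins slide spindle microtubules apart, shorten their ends, push chromosome arms and build the midzone on which the cleavage furrow depends. Their transcripts are known to peak with the approach of mitosis. Transport kinesins carry vesicles, mitochondria and protein complexes outward along microtubules in interphase cells. Several of them, such as KIF1A, KIF5A and KIF5C, are known mainly from neurons.

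The RNA came from KPL-1 cells, an established breast cancer line of human origin with an inducible Cas9 (iCas9), at day 7 of doxycycline. The control group was 3 libraries of cells with the empty guide vector (sgEmpty, genotype WT in the labels), and the other group was 3 libraries of cells with a guide against the histone methyltransferase gene SETD1A (sgSETD1A, genotype SETD1A knockout in the labels). Both groups carried iCas9 and received doxycycline. The labels name neither clones nor the guide sequence, and they do not state whether each library had its own culture. The p-values therefore reflect library-to-library spread, which could be technical alone. The series title ties SETD1A to proliferation of breast cancer cells, and the comparison below gives the kinesin transcripts with and without the SETD1A guide.

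SETD1A itself measured 17.5, 17.5 and 18.1 TPM in sgEmpty and 9.36, 11.3 and 10.7 TPM in sgSETD1A, so the groups did not overlap. The 10 luminal breast markers checked were all present, with a summed level of 21531 to 22972 TPM in sgEmpty and 22332 to 23070 TPM in sgSETD1A. Single markers moved in both directions. In sgSETD1A 7 were higher and 1 lower without overlap, where 36.4% of all tested genes were higher and 17.3% lower. KRT18 averaged 4316 TPM in sgEmpty and 5175 TPM in sgSETD1A, and TFF1 averaged 7155 and 5734 TPM. The 15 markers of other cell types summed to 7.87 to 8.55 and 7.88 to 10.8 TPM, with DCN and KRT5 at 0 in all 6 libraries. COL1A1 (2.38 to 4.08 TPM), MAP2 (3.10 to 3.68 TPM) and VIM (0.971 to 1.63 TPM) were detected in both groups with overlap. The basal marker TP63 was at 0.282 to 0.592 TPM in sgEmpty and 1.09 to 1.31 TPM in sgSETD1A, without overlap, and its part in the results was not tested. Correlations of log2(TPM + 1) across genes were 0.988 to 0.990 between groups, and within sgSETD1A as low as 0.995, where replicate 1 was the library that stood apart. Depth is unknown, because TPM keeps none. In bulk RNA, fewer cells that express a gene and less RNA per cell cannot be told apart.

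Many tested kinesin genes were higher with the SETD1A guide. With limma on log2(TPM + 1) and an adjusted p under 0.05 over all genes tested, 16 of 32 rose, 1 fell and 15 did not pass. In the same comparison 28.0% of all 11885 tested genes were called higher and 13.5% lower, or 41.5% in either direction, so a call alone sets no gene apart. The groups did not overlap for 24 of the 32, of which 22 were higher and 2 lower in sgSETD1A, where 53.7% of all tested genes had groups without overlap, 36.4% higher and 17.3% lower. The median change of the 32 was 0.18 log2, beside 0.073 for all tested genes. After median-ratio rescaling, which moves the median of all genes to 0.0042 log2, 12 kinesin genes rose and 1 fell, where 15.5% of all genes were called higher and 19.2% lower. After quantile normalization 14 rose and 1 fell, beside 18.0% and 17.3% of all genes.

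By count, rises were most frequent among transport kinesins. Of 14 tested transport kinesins, 10 rose, none fell and 4 did not pass, with a median of 0.24 log2. Of 13 tested mitotic kinesins, 4 rose, 1 fell and 8 did not pass, with a median of 0.13 log2. Before rescaling, their share of rises (30.8%) was near the 28.0% of all genes. It was 23.1%, beside 15.5% of all genes, after median-ratio rescaling, and 30.8%, beside 18.0%, after quantile normalization. Of the 5 other tested kinesins, 2 rose and none fell. After median-ratio rescaling 7 transport kinesins rose, with a median of 0.18 log2, against 3 mitotic kinesins that rose and 1 that fell, with a median of 0.062 log2. No test of the difference between the classes was made, since the members were chosen by name. Their roles were assigned with earlier results of these data known.

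**Figure D1:**
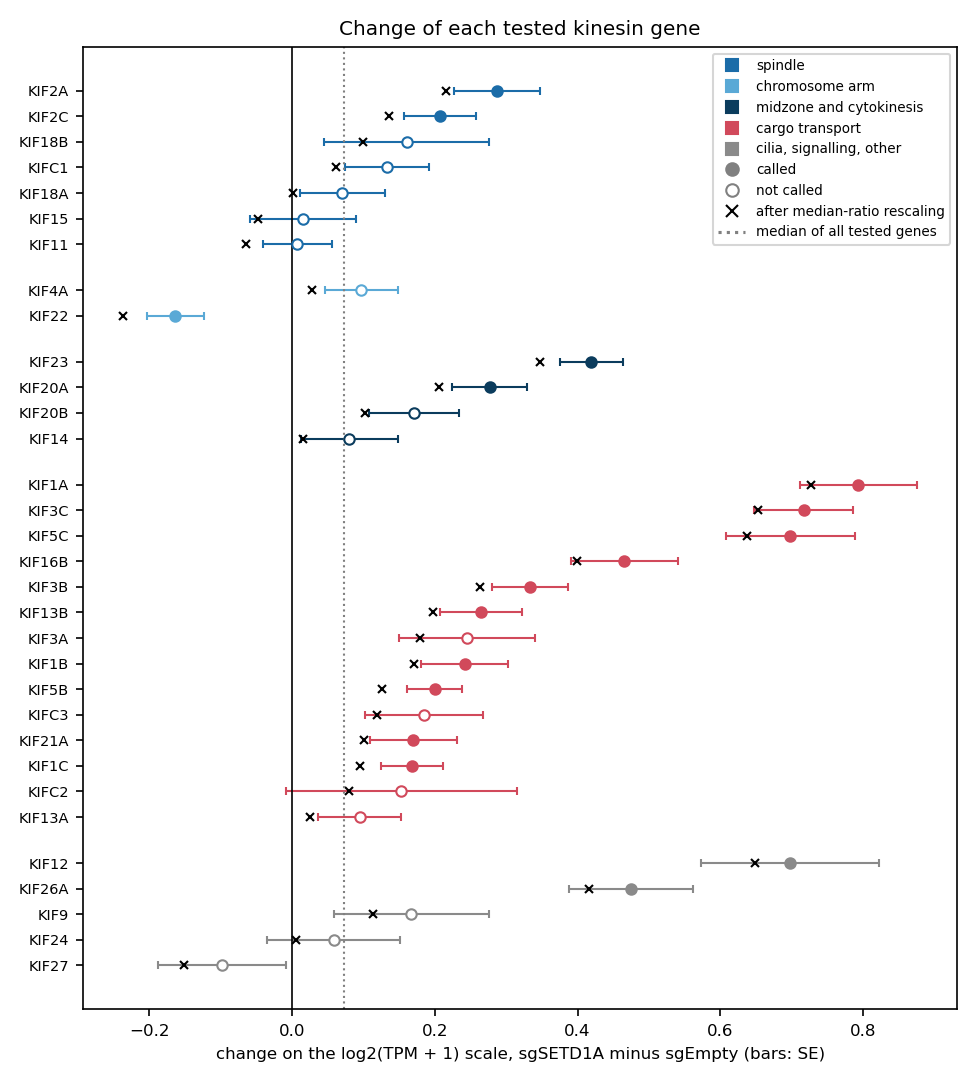
Change of each of the 32 tested kinesin genes, sgSETD1A minus sgEmpty, on the log2(TPM + 1) scale (points, filled where called; bars are SE), grouped by role, with the same change after median-ratio rescaling (crosses) and the median of all tested genes, 0.073 (dotted line). All 14 transport kinesins lie to the right of the dotted line, from 0.095 to 0.79, while mitotic kinesins run from -0.16 to 0.42.

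The summed level of each class gave the same order. Mitotic kinesins together measured 318 to 319 TPM in sgEmpty and 342 TPM in each sgSETD1A library, a narrow spread in both groups. Transport kinesins together measured 328 to 342 TPM in sgEmpty and 384 to 406 TPM in sgSETD1A. Both sums were higher with the SETD1A guide, but they were not rescaled. Tested genes as a whole shifted upward, by 0.073 log2 at the median, so a higher sum alone does not set a class apart. The ratio of transport to mitotic TPM does not depend on the scaling between libraries. It was 1.04, 1.03 and 1.08 in sgEmpty and 1.12, 1.19 and 1.17 in sgSETD1A, so the transport sum was raised more than the mitotic sum. This contrast leans on 1 gene, KIF22, which makes up a large part of the mitotic sum and was lower in sgSETD1A. KIF22 averaged 96.1 TPM in sgEmpty and 85.7 TPM in sgSETD1A. The contrast of the sums is therefore not one of mitotic kinesins in general. No p-value is given for sums over chosen members.

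The promoters of the kinesin genes were searched for words known from mitotic genes. Mitotic genes are known to be held down outside mitosis through the cell cycle genes homology region (CHR), which binds the MuvB core of the DREAM and MYB-MuvB complexes, with a nearby box for the activator NF-Y. RefSeq windows (GRCh38.p14) from 250 bases before to 50 after a gene's start were matched by symbol to 34 of the 42 genes and searched on both strands for TTTGAA or TTCGAA as the CHR and for CCAAT as the NF-Y box, words that do not overlap one another. A CHR word was found in 11 of 15 mitotic kinesin genes, 1 of 12 transport genes and 1 of 7 others, an NF-Y word in 11, 4 and 3 genes, and both words in 1 window in 10, 1 and 1 genes. Of all 27305 genes with a RefSeq window, expressed here or not, 19.5% have a CHR word, 39.7% an NF-Y word and 7.85% both in 1 window. By window, the shares are 16.4%, 34.6% and 6.38% of 35116. No difference between the classes was tested. The expression values themselves were made against hg19, and no coordinates were carried from one build to the other.

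The bases just before the start are shown for 6 mitotic genes with different responses, for KIF2A, a mitotic gene with neither word, and for 2 transport genes, each 5′ to 3′ on the gene's strand with CHR and NF-Y words in capitals. In order they lie at chr15:69414249-69414348 (plus strand), chr5:138179012-138179111 (plus strand), chr16:29790651-29790750 (plus strand), chr10:92593030-92593129 (plus strand), chr11:28108157-28108256 (minus strand), chrX:70290004-70290103 (plus strand), chr5:62306106-62306205 (plus strand), chr10:32056426-32056525 (minus strand) and chr2:25982498-25982597 (minus strand).
KIF23: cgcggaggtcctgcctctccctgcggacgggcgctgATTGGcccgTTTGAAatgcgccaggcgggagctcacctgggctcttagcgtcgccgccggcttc
KIF20A: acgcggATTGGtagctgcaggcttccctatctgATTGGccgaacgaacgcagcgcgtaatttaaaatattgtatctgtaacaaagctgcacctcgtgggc
KIF22: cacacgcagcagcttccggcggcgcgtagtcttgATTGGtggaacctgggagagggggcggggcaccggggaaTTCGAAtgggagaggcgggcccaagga
KIF11: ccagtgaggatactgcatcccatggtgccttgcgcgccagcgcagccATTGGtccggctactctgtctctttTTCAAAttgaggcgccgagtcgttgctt
KIF18A: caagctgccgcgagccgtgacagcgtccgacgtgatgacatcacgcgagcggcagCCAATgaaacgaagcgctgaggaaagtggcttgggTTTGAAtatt
KIF4A: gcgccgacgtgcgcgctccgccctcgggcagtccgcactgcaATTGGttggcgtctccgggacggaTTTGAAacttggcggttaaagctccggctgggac
KIF2A: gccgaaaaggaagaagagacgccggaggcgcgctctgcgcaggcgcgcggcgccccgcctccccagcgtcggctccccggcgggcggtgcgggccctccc
KIF5B: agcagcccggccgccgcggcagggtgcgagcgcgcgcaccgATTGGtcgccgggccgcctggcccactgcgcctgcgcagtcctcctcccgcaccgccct
KIF3C: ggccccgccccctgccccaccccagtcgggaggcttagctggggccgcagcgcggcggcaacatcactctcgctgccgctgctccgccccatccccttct
KIF23, KIF22, KIF11, KIF18A and KIF4A carry both words within the stretch, with the first base of the CHR word at -55, -27, -28, -10 and -34 bases from the start. KIF20A carries 2 NF-Y words and neither CHR word, KIF5B has an NF-Y word in the stretch and its CHR word farther out, at -140, and KIF2A and KIF3C have none. The first base of the NF-Y word lies 25 bases before that of the CHR word in KIF11, 24 in KIF4A, 35 in KIF18A, 39 in KIF22 and 9 in KIF23. A match is a run of letters and was not tested as a binding site. Of all kinesin genes with both words in 1 window, KIF23 and KIF5B rose and KIF22 fell. KIF11, KIF18A, KIF4A, KIFC1, KIF20B, KIF14, KIF18B and KIF24 were not called, and KIF4B was not tested. The other mitotic kinesins that rose, KIF20A, KIF2A and KIF2C, had no CHR word.

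**Figure D2:**
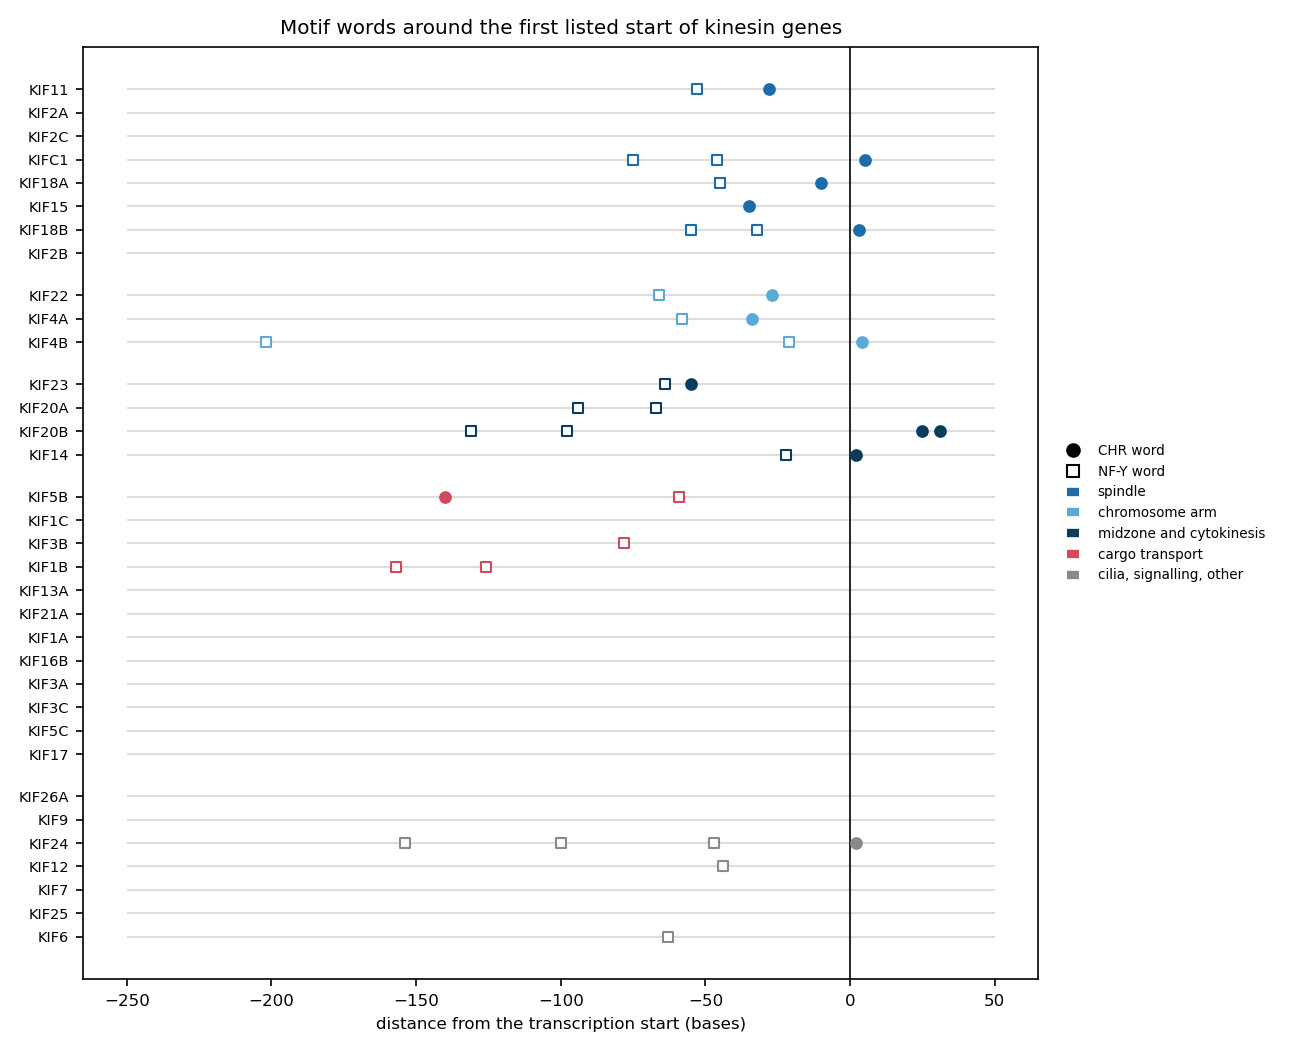
Position of CHR words (filled circles) and NF-Y words (open squares) relative to the first listed start of each kinesin gene with a RefSeq window, from 250 bases before to 50 after, grouped by role. In the mitotic rows most filled circles lie within 55 bases of the start, downstream of a square, whereas 1 of 12 transport rows, that of KIF5B, has a filled circle.

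Among the midzone kinesins, which bundle antiparallel microtubules between the separating chromosomes and recruit the cytokinesis machinery, 2 of 4 rose. Of all genes, 28.0% were called higher, and 15.5% after median-ratio rescaling, where 2 of 4 midzone kinesins rose as well. With 4 genes, the count does not set the group apart. KIF23, the motor subunit of centralspindlin, measured 30.6, 31.8 and 32.4 TPM in sgEmpty and 42.3, 43.3 and 42.2 TPM in sgSETD1A. Every sgSETD1A library lay above every sgEmpty library by a wide margin. The rise was 0.42 log2 (SE 0.044; limma adjusted p = 1.21e-04) and 0.35 log2 after median-ratio rescaling, the largest of any mitotic kinesin tested. KIF20A, which carries the chromosomal passenger complex to the midzone, measured 24.6, 25.5 and 25.6 TPM and then 32.7, 29.8 and 29.9 TPM. It rose by 0.28 log2 (SE 0.053; limma adjusted p = 0.00304), again without overlap. KIF20B, a relative of KIF20A that acts late in cytokinesis, stood at 12.7 ± 0.70 and 14.5 ± 0.61 TPM (SD, n = 3), just short of the threshold (0.17 log2; limma adjusted p = 0.0521). KIF14, which anchors citron kinase at the midbody, stood at 6.58 ± 0.077 and 7.02 ± 0.37 TPM (SD, n = 3), with a limma adjusted p of 0.367.

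Among the spindle kinesins, KIF2A and KIF2C rose and 5 of 7 tested did not pass. The 28.6% called higher was near the 28.0% of all genes, as was 14.3% beside 15.5% after median-ratio rescaling. KIF2A, which trims microtubules at spindle poles and also acts in interphase cells and neurons, measured 27.9, 28.7 and 25.2 TPM in sgEmpty and 35.1, 32.5 and 32.7 TPM in sgSETD1A. Its groups did not overlap, and it rose by 0.29 log2 (SE 0.060; limma adjusted p = 0.00467). KIF2C, which corrects faulty attachments at centromeres, measured 26.8, 27.5 and 25.5 TPM and then 32.0, 30.1 and 30.5 TPM. It rose by 0.21 log2 (SE 0.050; limma adjusted p = 0.00995), and this call was lost after median-ratio rescaling (0.14 log2; limma adjusted p = 0.0744).

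KIF11, the plus-end motor that pushes the spindle poles apart and the target of a class of antimitotic inhibitors, measured 31.6, 30.5 and 29.9 TPM in sgEmpty and 31.4, 29.7 and 31.5 TPM in sgSETD1A. The values of both groups lay in the same range, with a difference of 0.0075 log2 (SE 0.048; limma adjusted p = 0.911). KIF15, which can maintain the bipolar spindle when KIF11 is inhibited, stood at 5.81 ± 0.32 and 5.88 ± 0.28 TPM (SD, n = 3), with a limma adjusted p of 0.878. KIFC1, a minus-end motor that clusters extra centrosomes in cancer cells, stood at 22.1 ± 0.32 and 24.3 ± 1.69 TPM (SD, n = 3), with a limma adjusted p of 0.0961, and without sgSETD1A replicate 1 it was called higher (0.19 log2; limma adjusted p = 0.0184). KIF18A, which limits chromosome swings at the metaphase plate, stood at 13.7 ± 0.37 and 14.4 ± 0.73 TPM, and its relative KIF18B at 4.45 ± 0.68 and 5.08 ± 0.63 TPM (SD, n = 3), with a limma adjusted p of 0.360 and 0.289.

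KIF22 was the only kinesin gene called lower. This chromokinesin binds chromosome arms and pushes them away from the poles. It measured 97.3, 93.8 and 97.2 TPM in sgEmpty and 82.8, 88.7 and 85.7 TPM in sgSETD1A, without overlap. The change was -0.16 log2 (SE 0.040; limma adjusted p = 0.00995) and -0.24 log2 after median-ratio rescaling (limma adjusted p = 0.00128). It was the most abundant mitotic kinesin transcript in every library. KIF4A, the chromokinesin that compacts chromosomes and sets midzone length with PRC1, stood at 15.2 ± 0.15 and 16.3 ± 0.20 TPM (SD, n = 3) and did not pass (0.097 log2; limma adjusted p = 0.151). KIF4B stayed between 0.10 and 0.251 TPM.

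**Figure D3:**
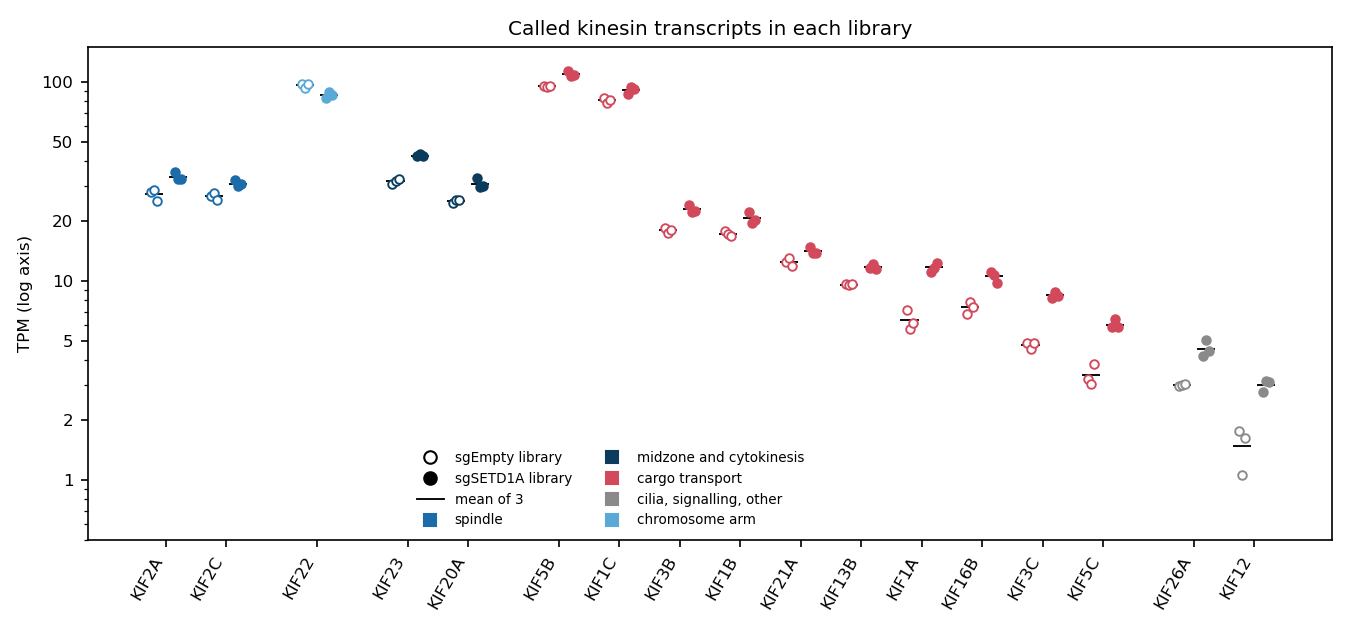
TPM (log axis) of the 17 called kinesin genes in each sgEmpty library (open circles) and sgSETD1A library (filled circles), with the mean of 3 as a line, grouped by role. The groups are separate for every gene shown, and KIF22 is the one whose filled circles lie below the open ones.

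Among transport kinesins, the largest changes were those of paralogs present at low levels. KIF1A, a fast carrier of dense-core and synaptic vesicle precursors, measured 7.14, 5.76 and 6.10 TPM in sgEmpty and 11.1, 11.6 and 12.3 TPM in sgSETD1A. All 3 sgSETD1A values lay well above the highest sgEmpty value. The rise was 0.79 log2 (SE 0.082; limma adjusted p = 1.21e-04), at rank 61 from the top of the 11885 tested genes, and the mean TPM was 1.84 times that of sgEmpty. KIF3C, a partner of KIF3A in heterotrimeric kinesin-2, measured 4.86, 4.54 and 4.87 TPM and then 8.22, 8.83 and 8.35 TPM, also without overlap. It rose by 0.72 log2 (SE 0.069; limma adjusted p = 8.39e-05). KIF5C, the kinesin-1 heavy chain enriched in motor neurons, measured 3.20, 3.02 and 3.81 TPM and then 5.86, 6.40 and 5.84 TPM. It rose by 0.70 log2 (SE 0.090; limma adjusted p = 3.97e-04), again with separate groups. These 3 rises were 0.73, 0.65 and 0.64 log2 after median-ratio rescaling.

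The widely expressed paralogs of the same families had higher levels and smaller log2 changes, differences that were not tested. KIF5B, the ubiquitous kinesin-1 heavy chain, measured 95.8, 94.1 and 96.0 TPM in sgEmpty and 114, 107 and 108 TPM in sgSETD1A. Over all 6 libraries it had the highest mean TPM of the kinesin genes (in sgEmpty alone KIF22 was higher), and it rose by 0.20 log2 (SE 0.038; limma adjusted p = 0.00301). KIF3B, the usual kinesin-2 partner of KIF3A, measured 18.5, 17.4 and 18.1 TPM and then 24.0, 22.3 and 22.5 TPM. It rose by 0.33 log2 (SE 0.054; limma adjusted p = 0.00130). KIF1B, which moves mitochondria or synaptic vesicle precursors depending on its isoform, measured 17.7, 17.3 and 16.9 TPM and then 22.2, 19.5 and 20.3 TPM. Its rise of 0.24 log2 (limma adjusted p = 0.0113) was lost after median-ratio rescaling (limma adjusted p = 0.0578) and after quantile normalization (0.0525). KIF1C, a carrier of dense-core vesicles and integrins, measured 82.6, 78.3 and 81.3 TPM and then 86.7, 94.3 and 91.7 TPM. Its rise of 0.17 log2 (limma adjusted p = 0.0129) was lost after median-ratio rescaling (limma adjusted p = 0.108) and without sgEmpty replicate 2 (0.0575). For all 4 the groups did not overlap.

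Levels were compared per length within pairs of related genes, and in 3 pairs the share of the lower one was higher in sgSETD1A. KIF5C stood at 3.34%, 3.21% and 3.97% of the KIF5B level in sgEmpty and at 5.14%, 5.98% and 5.41% in sgSETD1A. KIF3C stood at 26.2%, 26.2% and 27.0% of KIF3B and then at 34.3%, 39.6% and 37.1%. KIF1A stood at 40.3%, 33.3% and 36.2% of KIF1B and then at 50.2%, 59.8% and 60.4%. In each of these pairs the lowest sgSETD1A share was above the highest sgEmpty share. In the fourth pair, KIFC2 stood at 552% to 683% of the KIFC3 level in sgEmpty and at 472% to 706% in sgSETD1A, with overlap. A ratio of 2 levels in 1 library is free of the scaling between libraries. The pairs were picked after their values were seen, and no test was made on them. KIF5A, the other neuronal kinesin-1 heavy chain, was listed at 0.180 TPM or less in every library.

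**Figure D4:**
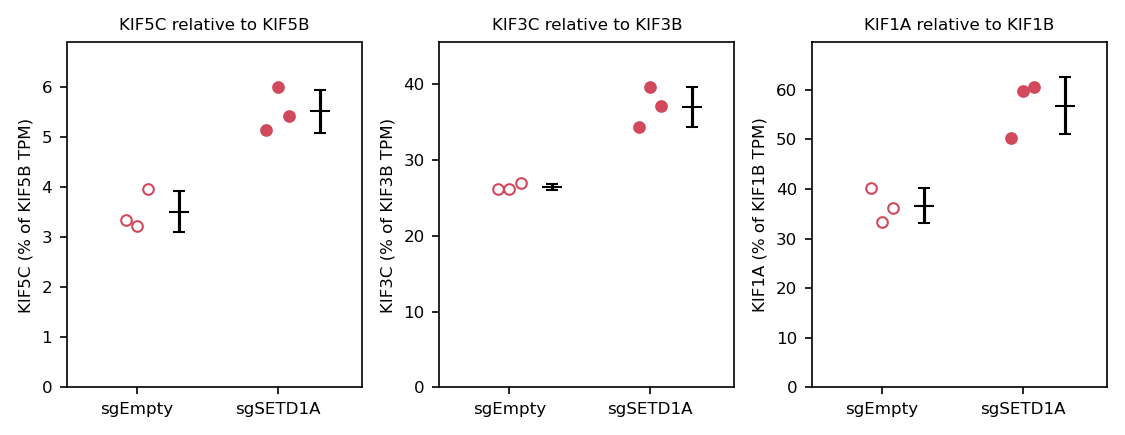
TPM of KIF5C, KIF3C and KIF1A as a percentage of KIF5B, KIF3B and KIF1B in each library (circles), with mean and SD (n = 3) beside them; each vertical axis starts at 0. In each panel the 3 sgSETD1A libraries lie above the 3 sgEmpty libraries.

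Of the remaining transport kinesins, 3 were called. KIF16B, which moves early endosomes, measured 6.83, 7.81 and 7.41 TPM in sgEmpty and 11.1, 10.7 and 9.76 TPM in sgSETD1A. Its groups were well separated, and it rose by 0.47 log2 (SE 0.075; limma adjusted p = 0.00127). KIF13B, which transports membrane and polarity proteins, measured 9.60, 9.53 and 9.59 TPM and then 11.6, 12.1 and 11.5 TPM, a rise of 0.27 log2 (limma adjusted p = 0.00585). KIF21A, which restrains microtubule growth at the cell cortex, measured 12.4, 13.0 and 11.8 TPM and then 14.8, 13.9 and 13.7 TPM. Its call was marginal (0.17 log2; limma adjusted p = 0.0493) and held in 3 of 14 alternative fits, with adjusted p up to 0.250 after median-ratio rescaling and 0.0701 with replicate number as a block.

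KIFC2, a minus-end directed motor of dendrites, was the transport kinesin with the widest spread, at 45.8, 48.2 and 56.4 TPM in sgEmpty and 40.5, 66.9 and 63.5 TPM in sgSETD1A. The sgSETD1A replicate 1 value was the lowest of all 6, and replicates 2 and 3 held the highest. The difference was 0.15 log2 (SE 0.161; limma adjusted p = 0.470), and without sgSETD1A replicate 1 it was 0.38 log2 (limma adjusted p = 0.00523). KIFC3, a minus-end motor at cell junctions and the centrosome, stood at 8.33 ± 0.090 and 9.65 ± 1.16 TPM (SD, n = 3), with a limma adjusted p of 0.0991, and it too was called without that library (0.26 log2; limma adjusted p = 0.0242). KIF3A, the shared subunit of kinesin-2, stood at 7.21 ± 0.67 and 8.74 ± 1.08 TPM (SD, n = 3), with a limma adjusted p of 0.0640. It was called without sgEmpty replicate 3 (limma adjusted p = 0.0464) or sgSETD1A replicate 3 (0.0377). KIF13A, which carries recycling endosomes, stood at 13.4 ± 0.50 and 14.4 ± 0.55 TPM (SD, n = 3), with a limma adjusted p of 0.220.

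The ciliary, signalling and other kinesins were all low, and 2 of 5 rose, beside 28.0% of all genes called higher. After median-ratio rescaling 2 of 5 rose as well, beside 15.5% of all genes. With 5 genes, the count does not set the group apart. KIF12, known from kidney and liver epithelium, measured 1.76, 1.06 and 1.62 TPM in sgEmpty and 2.77, 3.13 and 3.09 TPM in sgSETD1A, so the mean level was 2.02 times as high. On the log2(TPM + 1) scale, which understates changes of low genes, it rose by 0.70 (SE 0.124; limma adjusted p = 0.00211). KIF26A, an unusual kinesin that lacks motor ATPase activity and restrains growth factor signalling, measured 2.95, 2.99 and 3.03 TPM and then 4.18, 5.05 and 4.44 TPM. It rose by 0.47 log2 (SE 0.087; limma adjusted p = 0.00248), with separate groups for both genes. KIF9, KIF24 and KIF27, which act in cilia or at centrioles, stood between 2.22 and 3.29 TPM and did not pass (limma adjusted p = 0.243, 0.638 and 0.401). Below the testing limit, KIF7, a regulator of Hedgehog signalling in cilia, measured 0.457, 0.560 and 0.412 TPM and then 0.572, 0.707 and 0.714 TPM.

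Of 23 tested light chains, adaptors and cargo linkers of transport kinesins, 10 rose, none fell and 13 did not pass, with a median of 0.14 log2. That is 43.5% higher, beside 28.0% of all genes, and 21.7% beside 15.5% after median-ratio rescaling. KIFAP3, the non-motor subunit that completes kinesin-2 with KIF3A and KIF3B or KIF3C, averaged 12.6 ± 0.12 TPM in sgEmpty and 17.5 ± 1.34 TPM in sgSETD1A (SD, n = 3) and rose by 0.44 log2 (limma adjusted p = 7.86e-04). The kinesin-1 light chain KLC1 averaged 67.0 ± 2.30 TPM in sgEmpty and 87.3 ± 3.62 TPM in sgSETD1A (SD, n = 3) and rose by 0.38 log2 (limma adjusted p = 2.48e-04). MAPK8IP1, a scaffold that joins kinesin-1 to its cargo, rose by 0.46 log2 and the recycling endosome adaptor RAB11FIP5 by 0.59 log2. Of 22 dynein and dynactin genes, which move cargo in the opposite direction, 10 rose (45.5%, beside 28.0% of all genes), 1 fell and 11 did not pass. After median-ratio rescaling 2 rose and 2 fell, and the 9.09% higher was below the 15.5% of all genes. DCTN2 was the fall (-0.25 log2), beside rises of DCTN6 (0.24), DYNC1LI2 (0.21) and DYNLL2 (0.20 log2).

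Tubulins, whose alpha and beta forms are the subunits of the microtubule track, were mostly higher. The list held 14 tubulin symbols, of which 12 were found and tested, and tubulin genes outside it were not examined. Every alpha and beta gene tested from the list was called higher. Of the other forms in the list, TUBD1 was called higher, and TUBG1 and TUBE1 were not called. Of 12 tested tubulin genes, 10 rose (83.3%, beside 28.0% of all genes) and none fell, also 10 after either rescaling, with a median of 0.46 log2. TUBB2A rose by 0.64, TUBB3 by 0.59, TUBB by 0.58 and TUBA4A by 0.52 log2. TUBB, the most abundant beta-tubulin of the list, averaged 705.1 ± 31.9 TPM in sgEmpty and 1055 ± 25.8 TPM in sgSETD1A (SD, n = 3, limma adjusted p = 7.69e-06). Tubulin genes are near-identical in long stretches, so how the counting divided reads among them is uncertain.

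Genes of intraflagellar transport, the ciliary cargo of kinesin-2, were called lower more often than higher. Of 17 tested, 2 rose, 6 fell and 9 did not pass, with a median of -0.014 log2, where 28.0% of all genes were called higher and 13.5% lower. After median-ratio rescaling 1 rose and 7 fell, where all genes gave 15.5% and 19.2%. IFT27 averaged 37.2 ± 3.08 TPM in sgEmpty and 24.9 ± 0.51 TPM in sgSETD1A (SD, n = 3), which is -0.56 log2 (limma adjusted p = 1.76e-04). IFT80 changed by -0.31 and IFT74 by -0.30 log2, against a rise of IFT52 (0.38 log2). Of the kinesin-2 genes, KIF3B, KIF3C and KIFAP3 rose in the same libraries, KIF3A was not called, and KIF17 was below the testing limit.

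Partners of the mitotic kinesins were called higher in 12 of 25 tested genes and lower in 1, with a median of 0.13 log2. The 48.0% called higher stands beside 28.0% of all genes, but after median-ratio rescaling 5 of 25 were higher and 1 lower, a share of rises near the 15.5% of all genes. HMMR, a spindle assembly factor, averaged 30.8 ± 0.48 TPM in sgEmpty and 23.9 ± 0.70 TPM in sgSETD1A (SD, n = 3), which is -0.35 log2, while the microtubule bundler NUSAP1 and the mitotic kinase CDK1 each rose by 0.28 and CDCA8, a subunit of the chromosomal passenger complex, by 0.27 log2. CENPE, the kinetochore kinesin whose symbol does not begin with KIF, measured 7.33, 7.06 and 7.79 TPM in sgEmpty and 8.06, 8.06 and 7.15 TPM in sgSETD1A, with overlap (limma adjusted p = 0.533). RACGAP1, the other subunit of centralspindlin and a gene picked after its values were seen, rose by 0.13 log2 (limma adjusted p = 0.0440), a call lost after median-ratio rescaling (0.401). KIF23 stood at 63.5% to 72.5% of the RACGAP1 level in sgEmpty and at 82.5% to 86.2% in sgSETD1A. MKI67 and TOP2A, markers of cycling cells in this list that were also picked after their values were seen, were called higher, at 27.9 ± 0.29 and 32.8 ± 3.20 TPM and at 39.7 ± 1.16 and 46.7 ± 3.45 TPM (SD, n = 3), with a limma adjusted p of 0.0241 and 0.0115, and neither call held after median-ratio rescaling (0.115 and 0.0660). Of the 25 partners, 12 were not called. They included PLK1, CDC20, BUB1, BIRC5 and AURKB, with a limma adjusted p of 0.463, 0.596, 0.363, 0.259 and 0.122. MKI67 and TOP2A thus do not stand for the whole list. The part of MKI67 and TOP2A in the rises of KIF23, KIF20A, KIF2A and KIF2C was not tested.

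Of 13 tested regulators of mitotic transcription, 3 rose, 1 fell and 9 did not pass, under each scaling. The 23.1% called higher did not exceed the 28.0% of all genes before rescaling. It was above the 15.5% of all genes after median-ratio rescaling and the 18.0% after quantile normalization. The order thus depended on the scaling, and the counts do not set the list apart. MYBL2, the MYB protein that turns the MuvB core into an activator, averaged 36.2 ± 1.43 TPM in sgEmpty and 50.6 ± 2.08 TPM in sgSETD1A (SD, n = 3) and rose by 0.47 log2 (limma adjusted p = 1.29e-04). E2F1 rose by 0.35 and FOXM1, which joins the same complex in late cell cycle, by 0.26 log2. RBL2, a pocket protein of the repressive DREAM form, changed by -0.22 log2 (limma adjusted p = 0.0129).

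**Figure D5:**
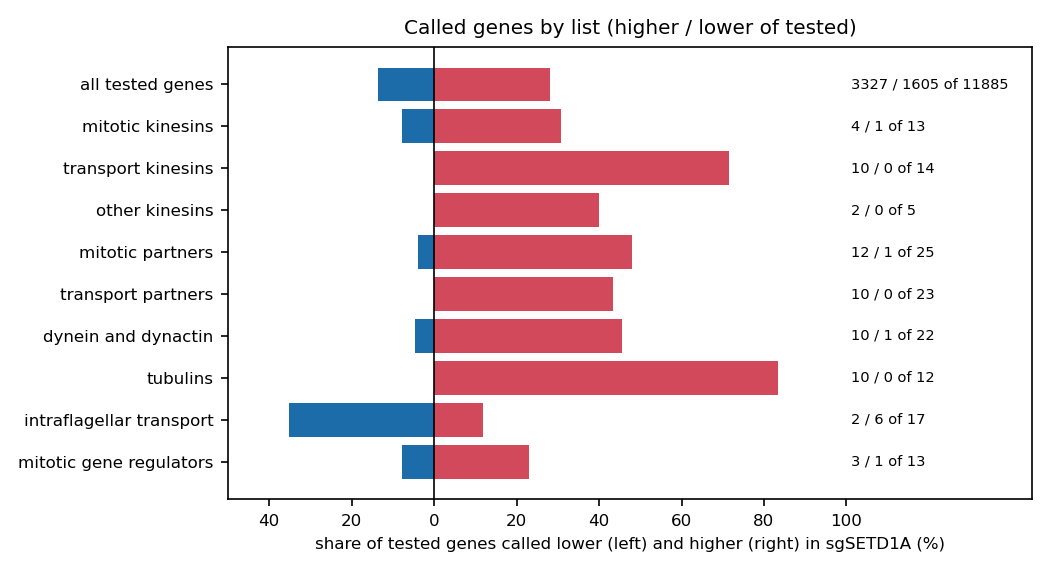
Share of tested genes called lower (left, blue) and higher (right, red) in sgSETD1A for each list of genes and for all tested genes, with the counts at the right. Transport kinesins (10 of 14 higher) and tubulins (10 of 12) lie farthest right. Mitotic kinesins (4 of 13) lie near all genes in this fit without rescaling, and intraflagellar transport genes (6 of 17) extend farthest left.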

How the data were processed

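RNA was compared between 3 sgEmpty and 3 sgSETD1A libraries, grouped by sample title. The authors deposited TPM values for 19035 gene symbols, and a nameless row of column totals was left out. Per the submitters' processing notes, STAR 2.6.0c, RSEM 1.3.1, bcl2fastq 2.20.0 and the build hg19 were used, with no roles given. Strand use in counting and depth are not given in the sources used here, and no count test was run.

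All genes with a mean of at least 1 TPM were fitted with limma 3.58.1 (R 4.3.3, mean-variance trend) on log2(TPM + 1), with Benjamini-Hochberg adjustment over all 11885. The fit was tested on simulated data. Kinesins, roles and pathway lists were chosen with earlier results of these data known. Named genes were every kinesin gene that met the testing limit, the 4 largest called changes of each pathway list, CENPE and SETD1A; exceptions are stated. Values in each library were given for called kinesins and the 5 most abundant of the mitotic and transport classes. Alternatives were pseudocounts of 0.1 and 5, no filter or a mean of 5 TPM, 2 rescalings, no trend, a replicate block and each library left out. Promoter windows came from RefSeq (GRCh38.p14). The guide pool held no guide named for a kinesin gene and was not used.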

Additional observations from a re-analysis of the deposited data

How the results depend on the processing

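The direction of every called kinesin gene was the same in all 14 alternative fits that gave it a value. Of the 17 calls, 13 held in each of them (7 transport, 4 mitotic and 2 other genes), and KIF1B, KIF1C, KIF2C and KIF21A were lost in at least 1. Single-gene calls were lost in 16 gene-by-setting combinations and gained in 8, and 417 were on the same side of the threshold. Counts of called kinesin genes ran from 13 (median-ratio rescaling) to 19 (without sgSETD1A replicate 1), those of transport kinesins from 7 to 11 and those of mitotic kinesins from 4 to 6. Without KIF2A in the list, 4 of 12 mitotic kinesins were called. With a mean of at least 5 TPM, no ciliary or other kinesin was left to test, so that setting gave no value for them. Whether the replicate numbers pair the samples is not known. Deviations from the group means of same-numbered libraries correlated at 0.085, -0.10 and 0.17. Those of differently numbered libraries correlated at -0.21 to 0.14. With 3 libraries a group, such weak correlations cannot decide the question. With replicate number as a block, 16 kinesin genes were called, KIF21A being the call lost. Leaving out each library in turn gave 15 to 19 called kinesin genes, 5 to 6 mitotic, 8 to 11 transport and 2 others. Precision rests on 3 libraries a group, since depth is unknown.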
